A study of Mus musculus with 2 samples.

Results

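Tenomodulin (Tnmd), scleraxis (Scx), mohawk (Mkx), thrombospondins 4, 2 and 3 (Thbs4, Thbs2, Thbs3) and the secreted protease Htra1 are genes that tendon biologists use as markers of tendon cells. Their 7 rows were taken by symbol from the 32285 gene rows of a single-cell RNA-seq study of mouse knee synovium, the soft tissue that lines the joint. The study has 2 libraries, both of wild type mice and each made from 20 pooled knees. One is labelled control and the other MMS with the tag D14; the labels do not spell out MMS, and give no day, age or operation for the controls. Synovium was cut out, digested to free its cells and run on the 10x Genomics droplet system, which counts unique molecular identifiers (UMIs), tags that mark single RNA molecules, at the 3' end of transcripts. With 1 library per group there is no replicate, so no test was made, and every interval below is a 95% interval that covers counting error only.

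Tendon is a dense cord of collagen fibrils laid down by fibroblasts called tenocytes. Scx, a basic helix-loop-helix transcription factor that binds E-boxes, and Mkx, a homeobox transcription factor, are known to drive the tenocyte programme. Tnmd, a membrane glycoprotein of mature tenocytes, is the classic late marker and a known target of Scx. Thrombospondins are large secreted glycoproteins that bind collagens, other matrix proteins and cell surface receptors, and Thbs4 is the family member most tied to tendon and muscle attachment. Htra1 is a secreted serine protease that cuts matrix proteins and is known to bind or cleave growth factors of the TGF-beta family. Synovium is not tendon, but knee synovium lies next to tendons, ligaments and the menisci.

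Depth was alike in total, 84900876 UMIs from 8810 control barcodes and 85597195 from 5286 MMS barcodes. After filtering, 6891 control and 3765 MMS cells were kept, and the libraries shared 4 kept barcodes. Cells were clustered with the 7 genes left out, so that neither the clusters nor their names used them. Clusters that scored for markers of fibroblasts (Pdgfra, Dcn, Col1a1 and others), lining or sublining fibroblasts, tenocytes or chondrocytes (cartilage cells) made up the fibroblast lineage. It held 3215 control cells (46.7% of those kept) and 1746 MMS cells (46.4%), which share 1 barcode. Their median depth was 13742 UMIs in control and 27591 in MMS, so levels are given as CPM, counts scaled to the same total of UMIs in each sum of cells, and shares of cells at equal depth. Goblet cells are named as the cell type in the labels. Yet 0 kept cells of either library had UMIs of 2 or more of 8 goblet markers, a limit of 0.0435% in control and 0.0797% in MMS.

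Where the genes lie was read from GENCODE M21 (GRCm38). Tnmd is at chrX:133850980-133865577 on the plus strand, Scx at chr15:76457452-76459458 (plus), Thbs4 at chr13:92751590-92794818 (minus), Thbs2 at chr17:14665500-14694235 (minus), Thbs3 at chr3:89215180-89226837 (plus) and Htra1 at chr7:130936111-130985660 (plus). The span of Scx overlaps that of Bop1, the span of Thbs3 that of Mtx1 and the span of Htra1 that of Fgfr2, each on the opposite strand. Mkx overlaps AC148004.2 on the same strand, which counting by strand would not separate. Whether the counting used strand is not given in the sources used here. Bop1, a ribosome biogenesis gene, had 18.6 control and 38.0 MMS CPM, for a log2 ratio of 1.03, and its part in the Scx count was not tested.

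The E-box, CANNTG on either strand, is the letter pattern bound by factors of the Scx class. RefSeq (GRCm38.p6) gives the 250 bases before the start for 5 of the 7 genes; Scx and Mkx were not matched. The windows of Tnmd, the member that was lower in MMS, and Thbs4, the thrombospondin with the largest difference, are printed 5' to 3' on the gene's strand with E-box letters in capitals.
Tnmd, chrX:133850758-133851007, plus strand: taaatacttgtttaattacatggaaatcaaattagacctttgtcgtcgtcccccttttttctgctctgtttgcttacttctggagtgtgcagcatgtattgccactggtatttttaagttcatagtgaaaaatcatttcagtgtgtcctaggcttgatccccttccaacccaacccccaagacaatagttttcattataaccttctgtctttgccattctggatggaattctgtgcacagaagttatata
Thbs4, chr13:92794819-92795068, minus strand: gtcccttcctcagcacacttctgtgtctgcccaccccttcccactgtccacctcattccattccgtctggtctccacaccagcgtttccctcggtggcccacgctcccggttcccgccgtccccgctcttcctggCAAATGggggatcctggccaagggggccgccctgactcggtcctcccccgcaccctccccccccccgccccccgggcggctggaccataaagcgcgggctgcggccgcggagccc
The Tnmd window holds 0 matches to CANNTG, and the Thbs4 window holds 1, CAAATG, whose first base is 115 bases before the start. Thbs2 and Thbs3 hold 1 each (CACTTG and CAGATG), and Htra1 holds 0. CANNTG occurs in 66.2% of the 32851 windows of this length in the table, so a match is a description of letters and not a binding site.

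In the fibroblast lineage as a whole, the 3 genes that differed most were higher in the MMS library: Scx, Mkx and Thbs4. Of the 7 genes, 3 were at least 2-fold higher in MMS and 0 at least 2-fold lower. Of the 13671 genes with at least 50 UMIs, 7.77% were that much higher and 7.82% that much lower. Of the 3, Mkx (17 control and 164 MMS UMIs) reached those 50 UMIs only through MMS, so its place in the count is no support. The median log2 ratio over those genes was 0.07. Scx stood at 7.57 CPM in control (362 UMIs) and 75.8 CPM in MMS (3666 UMIs), a log2 ratio of 3.32 (3.17 to 3.48). Mkx was rare in both libraries, with 0.355 CPM from 17 UMIs in control and 3.39 CPM from 164 UMIs in MMS, a log2 ratio of 3.25 (2.53 to 4.07). Both transcription factors thus differed by a similar factor from very unequal depths of counting. Thbs4 went from 78.4 CPM (control) to 671 CPM (MMS), a log2 ratio of 3.10 (3.05 to 3.15).

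The other 4 genes differed less. Htra1 had 546 control and 1059 MMS CPM (log2 ratio 0.95, 0.93 to 0.98), and Thbs2 at 178 and 314 (0.82, 0.78 to 0.86). Thbs3, a thrombospondin found in many mesenchymal tissues, was nearly level, at 227 and 260 CPM (0.20, 0.16 to 0.23). Tnmd went the other way: its level was 88.8 CPM in the control library against 53.2 in the MMS library, with a log2 ratio of -0.74 (-0.81 to -0.67). The sign of the Tnmd ratio was not stable. Among cells of the same depth it was 0.06, and over clusters that both libraries hold, weighted equally, it was 0.92.

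**Figure D1:**
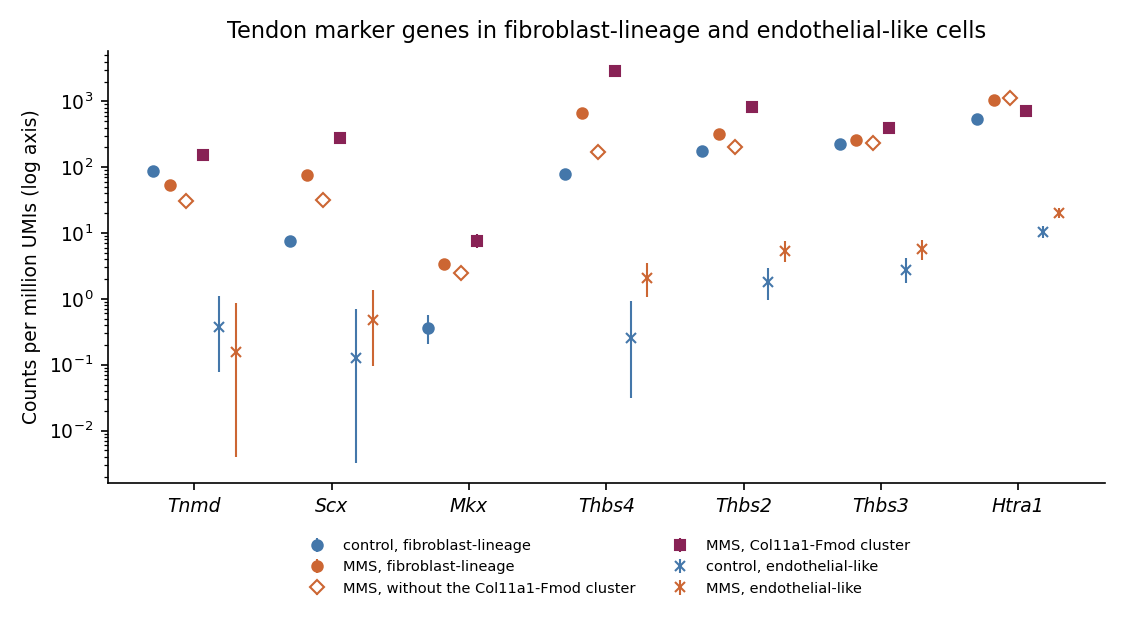
Level of each gene in CPM on a log axis, as a sum over the cells of a library; vertical lines are exact Poisson 95% intervals, and genes with 0 UMIs in a class are left out. Scx, Mkx and Thbs4 lie about a decade higher in MMS fibroblast-lineage cells than in control, Tnmd lies lower, and endothelial-like cells lie far below for the 6 genes with a point there; Mkx has none.

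The genes were read against endothelial-like cells, which should lack them, as a measure of free RNA. Endothelial-like cells of control and MMS held 0.380 and 0.157 CPM of Tnmd, 0.127 and 0.470 of Scx, 0 of Mkx in both, and 0.253 and 2.04 of Thbs4. Htra1 was the highest there, at 10.4 and 20.2 CPM. The fibroblast-lineage levels of the genes other than Mkx were many times these values. For Mkx the limit of 3 counts in control endothelial-like cells is 0.380 CPM, above its control lineage level of 0.355, so control Mkx was not shown to lie above free RNA. Mural-like cells, the contractile cells of vessel walls, held Htra1 at 236 (control) and 540 CPM (MMS) and Thbs2 at 75.1 and 76.6, while Scx and Thbs4 stayed at or under 6.07 CPM. In mononuclear myeloid-like cells the highest of the 7 was Thbs3, at 9.77 and 9.83 CPM.

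A cluster of 293 MMS cells and 0 control cells carried much of the difference. It was led by Col11a1, a fibril collagen, Thbs1, Acan, the large cartilage proteoglycan, Fmod, a collagen-binding proteoglycan of tendon, and Spp1. It is called the Col11a1-Fmod cluster here. It joined the lineage on the tenocyte markers Fmod, Kera, Chad, Cilp2 and Col11a1, so their levels there are no separate evidence. With 1 library per group, a cluster of 1 library may be that library and not a cell type. Its genes belong in part to tendon (Fmod at 2432 CPM, Col11a1 at 1014, Scx) and in part to cartilage (Acan at 1386, Sox9 at 307). Col2a1 was at 26.5 CPM, in 13.7% of cells, and Col11a1 is a cartilage gene too. The other chondrocyte markers went both ways against the other MMS lineage cells. Sox5 was lower (59.4 against 205 CPM) and Cytl1 was at 0, while Col9a1, Col9a2, Hapln1, Matn3 and Snorc were higher. No cell type name is given to the cluster. Fibrillar collagen was high (Col1a1 at 32513 CPM), and the lubricin gene Prg4 was at 2899 CPM against 59385 in the other MMS lineage cells.

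In the Col11a1-Fmod cluster, Scx was at 274 CPM (263 to 285) with a UMI in 82.3% of cells, and Thbs4 at 2916 CPM (2880 to 2952) with a UMI in 87.4%. Mkx was at 7.68 CPM (5.97 to 9.74), Thbs2 at 810 and Thbs3 at 390. Tnmd, at 155 CPM, was seen in 30.7% of its cells. These 293 of the 1746 MMS lineage cells held 80% of the library's lineage UMIs of Thbs4, 66% of Scx, 53% of Tnmd, 47% of Thbs2, 41% of Mkx, 27% of Thbs3 and 12% of Htra1. For 5 of the genes it was the highest of the 15 cluster-by-library sums with at least 50 cells, and the exceptions were Tnmd and Htra1. With a finer clustering (resolution 2) the highest Thbs3 was in another MMS cluster, at 503 CPM.

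Without the Col11a1-Fmod cluster, Scx and Mkx still stood at 31.4 and 2.43 CPM in MMS, log2 ratios of 2.05 and 2.77. Thbs4 came to 168 CPM and a ratio of 1.10. Thbs2 and Thbs3 came to 203 and 231 CPM, ratios of 0.19 and 0.02, while Htra1 came to 1139 CPM and 1.06. Tnmd was then at 30.3 CPM, a log2 ratio of -1.55. So 4 genes were at least 2-fold higher without that cluster and 1, Tnmd, at least 2-fold lower. The share of all genes was not taken without that cluster, so these counts have no background beside them. Of the 4, Mkx had 17 control and 96 MMS UMIs. Mkx passed the minimum of UMIs for a gene only through MMS, so its place in the count is no support.

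**Figure D2:**
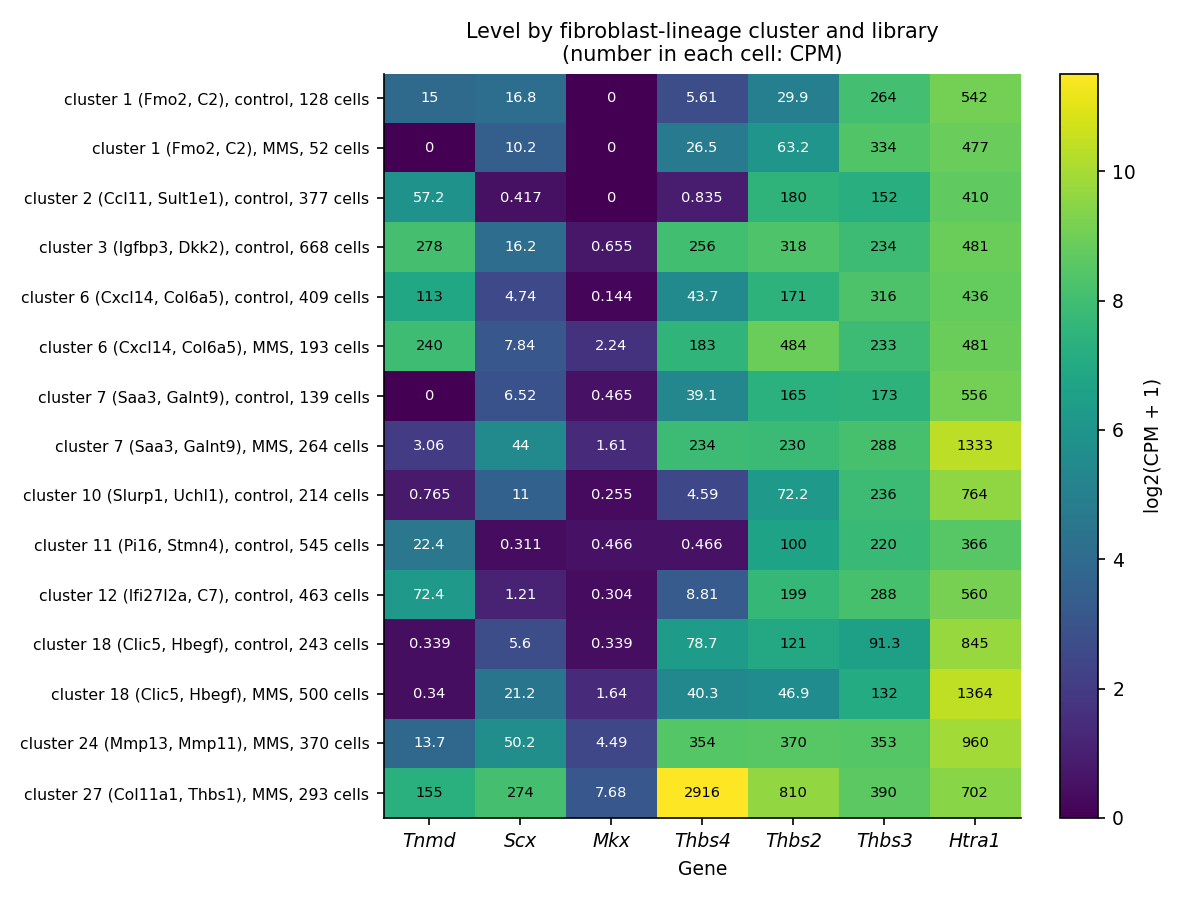
Level of each gene in every fibroblast-lineage cluster and library with at least 50 cells; colour is log2(CPM + 1), the printed number is CPM, and each row names the cluster's leading genes and its cells. Scx, Mkx, Thbs4, Thbs2 and Thbs3 are highest in cluster 27 (Col11a1, Thbs1), Tnmd in control cluster 3 (Igfbp3, Dkk2) and Htra1 in MMS cluster 18 (Clic5, Hbegf).

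In control synovium Tnmd and Thbs4 were highest, among clusters of at least 50 control cells, in a cluster with few MMS cells. This was cluster 3, led by Igfbp3 and the Wnt modulators Dkk2 and Sfrp2: its 668 cells had Tnmd at 278 CPM, with a UMI in 381 of them, and held 60% of the control lineage UMIs of Tnmd. The same cluster held 62% of the control UMIs of Thbs4 at 256 CPM and had the highest control level of Thbs2, 318 CPM. It also held 40.9% of the control Scx UMIs, at 16.2 CPM in 54 cells, and 35.3% of the 17 Mkx UMIs, the largest control share of each. Clusters 6 (Cxcl14, Col6a5) at 113 CPM, 12 (Ifi27l2a, C7) at 72.4 and 2 (Ccl11, Sult1e1) at 57.2 followed for Tnmd. In the progenitor-type cluster 11, led by Pi16 and Dpp4, Tnmd was at 22.4 CPM and Scx at 0.311. Only 12 MMS cells fell in cluster 3, with Tnmd at 848 CPM, too few to compare.

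**Figure D3:**
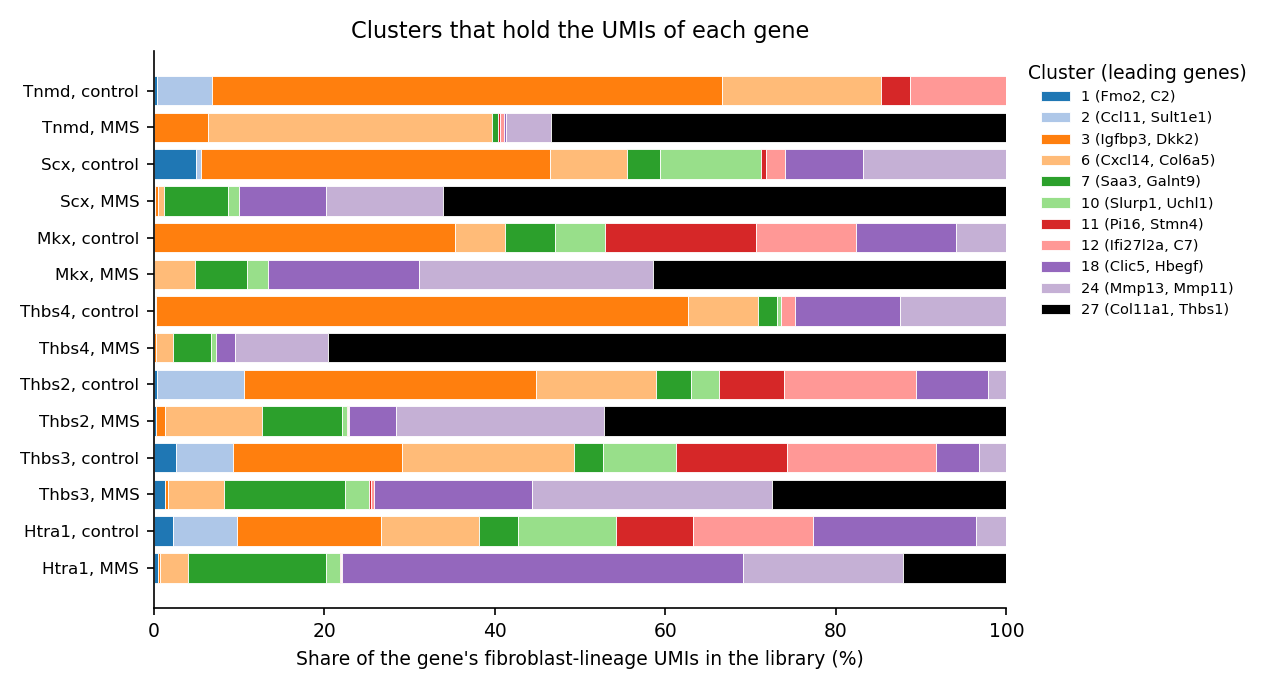
Share of each gene's fibroblast-lineage UMIs in a library that lies in each cluster, in percent of that library's UMIs of the gene; bars add up to 100%. In control, cluster 3 holds 60% of Tnmd and 62% of Thbs4; in MMS, cluster 27 (black) holds 53% and 80%, and for Htra1 it holds 12%.

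Htra1 was highest in the cluster of the joint lining. With a finer clustering (resolution 2) the highest Htra1 was 2099 CPM, in an MMS cluster that is not named here. Cluster 18, led by the lining genes Clic5, Hbegf, Col22a1 and Prg4, had Htra1 at 845 (control) and 1364 CPM (MMS), the highest in each library among clusters of at least 50 cells. Tnmd was near 0 there, at 0.339 and 0.340 CPM, in the same range as endothelial-like cells. In the MMS library cluster 7 followed at 1333 CPM (1304 to 1362), which overlaps the interval of cluster 18 (1347 to 1381). Against the other lineage cells, in a ranking that left haemoglobin genes out, cluster 7 was led by Saa3 and Galnt9. Against all other cells, with no gene left out, the haemoglobin genes Hbb-bt, Hba-a2, Hbb-bs and Hba-a1 led it. Next came the Mmp13 and Mmp11 cluster (cluster 24, 370 cells) at 960 and the Col11a1-Fmod cluster at 702. Cluster 24, whose leading genes are matrix-degrading proteases, came next after the Col11a1-Fmod cluster among MMS clusters of at least 50 cells for Scx (50.2 CPM) and Mkx (4.49). Its 29 control cells, too few to compare, held 16.9% of the control lineage UMIs of Scx and had Thbs4 at 540 CPM, from 5 cells.

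There were 4 clusters with at least 50 cells of each library, which allow a comparison within a cluster. Scx was higher in MMS in cluster 7, from 6.52 to 44.0 CPM (log2 ratio 2.76, 1.98 to 3.65), and in the lining cluster 18, from 5.60 to 21.2 CPM (1.92, 1.40 to 2.48). In cluster 6, led by Cxcl14, its ratio of 0.73 had an interval from -0.05 to 1.5. In cluster 1, led by Fmo2 and C2, all 18 control Scx UMIs came from 1 cell and the 5 MMS UMIs from 2 cells, with a ratio of -0.72 (-2.51 to 0.76). The Scx difference was thus large in the lining cluster and in cluster 7, and not resolved by the counts in clusters 1 and 6. Mkx rested on 2 and 29 UMIs in cluster 18, a ratio of 2.27 (0.29 to 5.39).

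Thrombospondins went in opposite directions between clusters. Thbs4 was higher in MMS in clusters 1, 6 and 7, with log2 ratios of 2.24, 2.07 and 2.58, and lower in the lining cluster 18, from 78.7 to 40.3 CPM (-0.97, -1.14 to -0.79). Thbs2 was likewise higher in those 3 clusters, at 1.08, 1.5 and 0.48, and lower in the lining cluster, from 121 to 46.9 CPM (-1.37, -1.52 to -1.23). Thbs3 was lower only in cluster 6, from 316 to 233 CPM (-0.44, -0.56 to -0.32), and higher in clusters 1, 7 and 18 at 0.34, 0.73 and 0.54. The Thbs4 ratio of cluster 1 rests on few cells, 6 UMIs in 3 control cells and 13 in 2 MMS cells. In cluster 7 the share of cells with a Thbs4 UMI was 28.8% in control and 25.8% in MMS, unthinned, so its higher MMS level lay in more UMIs per cell and not in more cells. The median over all genes within these clusters lay between -0.07 and 0.18. Whether the ratios differ between clusters was not tested. The summed level of 5 haemoglobin and red cell genes, a sign of blood RNA, was 318 CPM over control lineage cells, against 808 in MMS. In cluster 7 it was 1857 and 2754 CPM, in cluster 6 it was 550 and 92.2, in cluster 18 it was 3.22 and 296, and in cluster 1 it was 10.3 and 24.5. Their part in these ratios was not tested.

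Tnmd was higher in MMS inside cluster 6, from 113 to 240 CPM (log2 ratio 1.08, 0.94 to 1.23), although it was lower in MMS over the lineage as a whole. In cluster 7 there were 0 Tnmd UMIs in control and 19 in MMS, the latter in 3 of 264 cells. In cluster 1 the counts were 16, in 5 cells, and 0. Cells of clusters 2, 3, 11 and 12, in which control Tnmd lay between 22.4 and 278 CPM, numbered 377, 668, 545 and 463 in control and 2, 12, 7 and 18 in MMS. Cluster sizes were not compared further, since the genes that define the clusters differ between the libraries too. In pooled tissue, fewer cells of a kind and less RNA per cell are told apart only as far as these clusters hold.

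**Figure D4:**
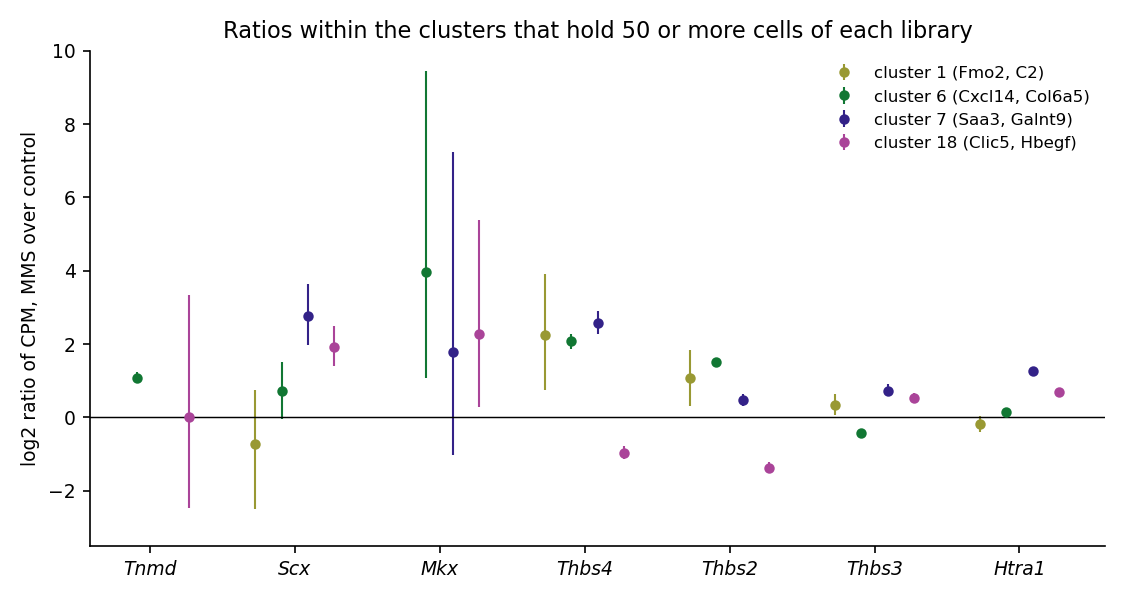
Log2 ratio of CPM, MMS over control, within the 4 clusters that hold at least 50 cells of each library; lines are exact 95% counting intervals, and ratios with 0 UMIs in a library are left out. Thbs4 and Thbs2 lie below 0 in cluster 18 alone, at -0.97 and -1.37, and above 0 in clusters 1, 6 and 7.

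The share of cells with at least 1 UMI depends on depth, so each cell was thinned to 5000 UMIs, and the expected number of cells over all possible draws was taken. This used 3032 control and 1577 MMS lineage cells and left out 183 and 169 shallower ones. The Scx share was 1.81% in control (1.37 to 2.35) against 18.7% in MMS (16.8 to 20.7), and the Thbs4 share 8.77% (7.79 to 9.84) against 28.9% (26.6 to 31.2). Mkx was in 0.165% (0.0536 to 0.384) and 1.59% (1.03 to 2.33). More MMS cells thus held each of these 3 genes. Unthinned, Scx was in 4.01% and 38.3% of cells and Mkx in 0.498% and 7.33%.

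Tnmd was in fewer MMS cells at equal depth, 19.2% (17.8 to 20.6) in control against 9.83% (8.40 to 11.4), a difference of -9.37 percentage points (-11.4 to -7.29). Htra1 was in 82.3% and 89.3% of cells and Thbs2 in 47.8% and 53.3%, with intervals that do not meet. Thbs3 was in 61.6% and 60.6%, a difference of -0.96 points (-3.93 to 2.0). The Thbs3 difference was -3.64 points (-6.25 to -1.10) at 10000 UMIs and -4.25 (-7.44 to -1.07) without the Col11a1-Fmod cluster. For Thbs2 the interval at 10000 UMIs ran from -4.20 to 1.80 points. In endothelial-like cells thinned alike (484 and 473 cells, with medians of 6970 and 9598 UMIs before thinning), 0 cells had Tnmd, Scx or Mkx in either library, which allows up to 0.620% and 0.634% by the limit of 3 cells. Thbs4 was in 0.207% and 1.27% of them and Htra1 in 5.37% and 7.61%. Without the Col11a1-Fmod cluster, Scx was in 10.6% of MMS cells, Thbs4 in 17.0% and Thbs2 in 46.1%, the last below its control share with overlapping intervals.

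**Figure D5:**
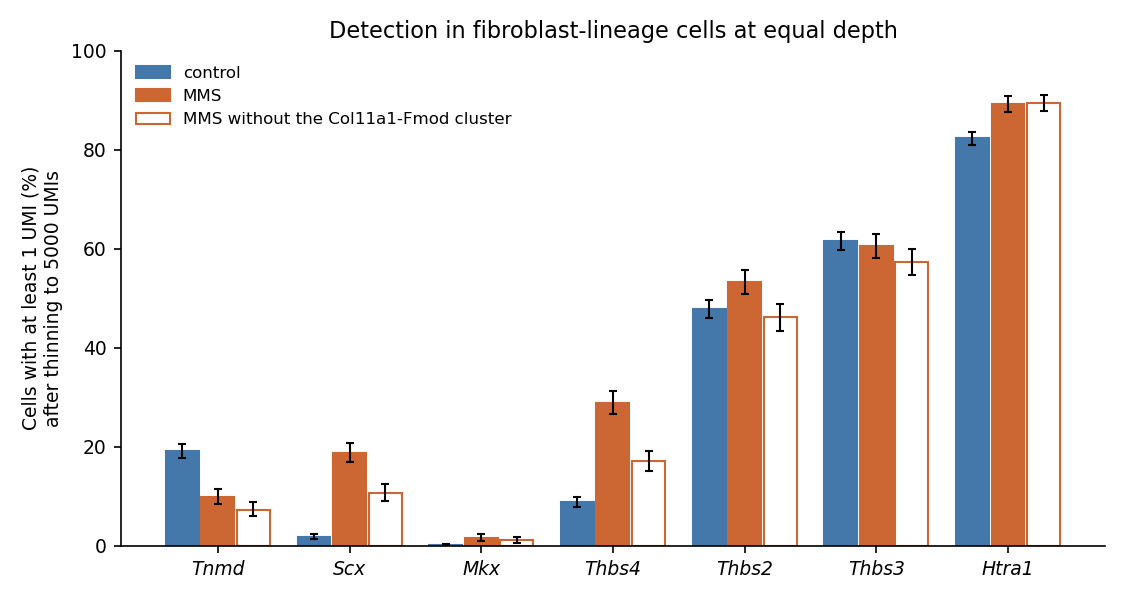
Share of fibroblast-lineage cells with at least 1 UMI of each gene after thinning every cell to 5000 UMIs, in percent; error bars are exact Clopper-Pearson 95% intervals. Scx goes from 1.81% in control to 18.7% in MMS and Thbs4 from 8.77% to 28.9%, while Tnmd goes from 19.2% to 9.83%.

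Cells that had any of Thbs4, Scx and Tnmd also had more of it in MMS, without correction for depth. The median Thbs4 count in cells with a UMI was 3 in control and 13 in MMS, and the highest cell held 299 and 712. For Scx these medians were 1 and 3, and the highest cell held 22 and 71. Tnmd went the same way, with medians of 4 and 6.5 UMIs and highest cells of 28 and 94, although fewer MMS cells had any. Mkx, which lies at chr18:6934518-7004780 on the minus strand, never passed 2 UMIs in a control cell or 6 in an MMS cell, so its shares lie close to the limit of what these counts can show.

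Few control cells held both Tnmd and Scx, though Scx was seen more often beside Tnmd than without it. At 5000 UMIs, Scx was in 20 of 582 control cells with Tnmd, 3.44% (2.11 to 5.26), and in 1.43% (1.0 to 1.98) of those without. In MMS it was in 47 of 155 cells with Tnmd, 30.3% (23.2 to 38.2), and in 17.4% (15.5 to 19.5) of those without. Most of these MMS pairs lay in the Col11a1-Fmod cluster: without it, 8 of 95 cells with Tnmd had Scx, 8.42% (3.71 to 15.9), against 10.8% (9.09 to 12.7) of those without Tnmd. Within the cluster, Scx was in 64.4% (50.9 to 76.4) of cells with Tnmd and 56.7% (49.7 to 63.6) of cells without, intervals that overlap.

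Thbs4 went with Scx in both libraries. It was in 43.6% (30.3 to 57.7) of the 55 control cells with Scx and 8.13% (7.17 to 9.17) of those without, and in 61.0% (55.2 to 66.6) of the 295 MMS cells with Scx and 21.5% (19.2 to 23.8) of those without. This held without the Col11a1-Fmod cluster too, at 30.2% (22.7 to 38.6) and 15.5% (13.4 to 17.7) in MMS. Thbs2 went with Tnmd: it was in 67.0% (63.0 to 70.8) of control cells with Tnmd against 43.3% (41.3 to 45.3) without, and in 89.7% (83.8 to 94.0) against 49.3% (46.7 to 51.9) in MMS. Cells with 2 or more of Tnmd, Scx and Mkx were 20 of 3032 in control, 0.660% (0.403 to 1.02), and 55 of 1577 in MMS, 3.49% (2.64 to 4.52). Without the Col11a1-Fmod cluster the MMS share was 0.840% (0.420 to 1.5), which overlaps the control interval. Unthinned, 0 control cells and 27 MMS cells had all 3 genes, 22 of them in that cluster.

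Over the 15 cluster-by-library sums, Scx and Thbs4 had a Pearson correlation of 0.82 on the log2(CPM + 1) scale, Mkx and Thbs4 one of 0.79 and Scx and Mkx one of 0.76. Tnmd and Scx had -0.02, and Tnmd and Thbs2 0.62. Htra1 had 0.60 with Scx, 0.47 with Mkx, 0.43 with Thbs4 and -0.49 with Tnmd. These sums share their libraries and depth, and the values are a description. By the same measure the genes closest to Scx were Fkbp10 and Plod2, which act in collagen folding and cross-linking, and Anp32b, at 0.90, 0.89 and 0.89. Closest to Thbs4 were Cthrc1 and Hexdc (0.93 and 0.92), to Tnmd Ak4, B830012L14Rik and Itm2a (0.90, 0.90 and 0.88) and to Mkx Snhg6, Rgs3 and Eprs (0.93, 0.91 and 0.91). Those closest to Thbs2 were Parp8, Hif1a and Myo7a (0.86, 0.85 and 0.84), to Thbs3 Antxr1, Lgals1 and Plat (0.92, 0.90 and 0.88) and to Htra1 Pitpnm1, Ciao2a and Adamts7 (0.93, 0.92 and 0.92).

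The relatives of the 7 genes went in different directions. Thbs1, a thrombospondin known as an activator of TGF-beta, had 6.33 control and 340 MMS CPM, and was at 1694 CPM in the Col11a1-Fmod cluster. Comp, the cartilage and tendon thrombospondin also called Thbs5, was lower in MMS, 2050 against 1367 CPM (log2 ratio -0.58), though it was at 3436 in that cluster. Htra4, a relative of Htra1 that marks lining cells, was at 184 and 793 CPM, while Htra3 was at 331 and 426 and Htra2 at 29.9 and 27.7. Cnmd, the cartilage relative of Tnmd, was at 2.66 and 1.47 CPM, and Tcf15, the closest relative of Scx, at 2.47 and 0.765, against 865 and 302 in endothelial-like cells. The Iroquois genes Irx1 (1.57 and 1.14), Irx3 (4.27 and 8.0) and Irx5 (0.460 and 0.765), homeobox genes of the class of Mkx, were low. Of these 10 relatives, 2 were at least 2-fold higher and 1 at least 2-fold lower, against 7.77% and 7.82% of all genes, with a median log2 ratio of 0.13.

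Of 34 tendon matrix genes measured, 13 were at least 2-fold higher in MMS and 2 at least 2-fold lower (7.77% and 7.82% of all genes), with a median log2 ratio of 0.74 against 0.07 over all genes. The highest were Col11a1 (1.74 to 194 CPM, 6.80), Fmod (13.1 to 496, 5.24) and Col12a1, a collagen that coats fibrils (12.4 to 343, 4.79). The lowest were Tppp3, known as a mark of tendon sheath progenitors (732 to 270, -1.44), the cross-linking enzyme Loxl4 (5.23 to 2.13, -1.30) and Dcn (18753 to 10214, -0.88). Without the Col11a1-Fmod cluster, 10 were that much higher and 5 that much lower, with a median of 0.14. The share of all genes was not taken without that cluster. Past a 4-fold difference in the whole lineage, 6 were higher and 0 lower, where 2.33% and 2.49% of all genes were. Past 1.5-fold, Col1a1, Col5a2, Col6a3, Cilp and Loxl3 joined the 13 that were higher, and 6 were lower. Of all genes, 15.4% were that much higher and 13.4% lower. The cluster's genes and these lists overlap, so this is no separate evidence.

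Of 21 regulators and signals of tendon formation, 4 were at least 2-fold higher and 1 lower, against 7.77% and 7.82% of all genes, with a median of 0.16. Of those 4, Mstn (4 control and 90 MMS UMIs), Gdf5 (17 and 113) and Six2 (18 and 63) reached the 50 UMIs asked for through MMS, so they had to differ, and the count is no support; the remaining gene was Tgfb1 (41.2 to 101 CPM, 1.29). The growth factors Mstn (0.0836 to 1.86 CPM) and Gdf5 (0.355 to 2.34) and the homeobox gene Six2 (0.376 to 1.30) had the highest ratios, 4.48, 2.72 and 1.79. The lowest were Egr1 (2277 to 803, -1.5), an early response factor that also activates tendon genes, Tgfb2 (173 to 92.9, -0.90) and Eya1 (1.76 to 1.03, -0.76). Of 13 receptors and partners of thrombospondins, 2 were that much higher and 0 lower, against 7.77% and 7.82% of all genes, with a median of -0.08. The highest were Cacna2d1 (69.9 to 145, 1.06), Itga6 (35.5 to 72.7, 1.03) and Itgb1 (288 to 498, 0.79), and the lowest Stim1 (50.1 to 25.7, -0.97), Itgb3 (32.4 to 16.7, -0.96) and Cd36 (15.8 to 8.23, -0.94).

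Of 15 known substrates of Htra1 and ligands of the TGF-beta family, 6 were at least 2-fold higher and 2 lower, against 7.77% and 7.82% of all genes, with a median of -0.03. Of the 6, Gdf5 passed the filter through MMS. Acan (1.63 to 279, 7.42), Fmod and Gdf5 were the highest, and Efemp1 (147 to 46.6, -1.66), Bmp4 (30.9 to 13.3, -1.22) and Tgfb2 the lowest. Of 21 cartilage genes listed, 16 had at least 50 UMIs, and some passed only through MMS, where they are high (Col2a1 with 2 control and 241 MMS UMIs, Col9a1 with 2 and 154, Matn3 with 3 and 144, Col11a2 with 13 and 679), so no count or median is given. Acan, the cartilage collagen Col2a1 (6.90) and Col11a1 had the highest ratios, and Cnmd, Comp and Sox6 (14.6 to 13.9, -0.07) the lowest. Without the Col11a1-Fmod cluster, the ratio of Acan was 4.26, that of Col11a1 2.52, that of Comp -1.18 and that of Chad -4.69. Chad had a UMI in only 0.373% of control lineage cells and 0.0688% of those MMS cells, so its ratio rests on few cells. For Acan these shares were 0.715% and 12.7%, and for Col11a1 1.40% and 5.92%. Of 10 genes of tendon sheath and progenitor cells, 1 was that much higher and 4 lower, against 7.77% and 7.82% of all genes, with a median of -0.82. Prg4 (12582 to 49048, 1.96), Cd44 (176 to 298, 0.76) and Has1 (330 to 323, -0.03) had the highest ratios, and Cd34 (682 to 124, -2.46), Tppp3 and Thy1 (113 to 52.2, -1.11) the lowest.

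The 763 control and 226 MMS lineage cells with a Tnmd UMI were set beside the lineage cells without. The median depth of those with and without was 13985 and 13631 UMIs in control and 22812 and 28081 in MMS. In control, 6 of 34 tendon matrix genes were at least 2-fold higher in cells with Tnmd and 3 lower, against 1.8% and 4.81% of 12459 genes. Chad was at 11.2 against 0.847 CPM, Angptl7 at 48.1 against 7.65, Kera at 12.1 against 2.81 and Fmod at 23.3 against 9.99. Tnc was lower, at 3.30 against 20.1 CPM, as were the lining genes Prg4, at 795 against 16190.5, and Htra4, at 7.05 against 239. These genes were picked after their values were seen. Over all control lineage cells, Chad had a UMI in 0.373%, Fmod in 0.902% and Kera in 2.21%, so their control levels rest on few cells. In MMS, 13 of the 34 were at least 2-fold higher and 2 lower, against 5% and 5.89% of 12554 genes, with Cilp2 at 173 against 15.6 CPM, Col11a1 at 811 against 107 and Thbs1 at 1026 against 244. Thbs1 was at 1.34 against 7.86 CPM in the control cells, the opposite direction. Of the 226 MMS cells with Tnmd, 90 lay in the Col11a1-Fmod cluster, which held 16.8% of MMS lineage cells. That cluster joined the lineage on Fmod, Kera, Chad, Cilp2 and Col11a1, which are among the 34 genes. The MMS count is thus no separate evidence, and it was not taken without that cluster.

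The 129 control and 668 MMS lineage cells with an Scx UMI were read in the same way. They were deeper than the rest, with medians of 21105 against 13629 UMIs in control and 33193 against 23601 in MMS. In control, 10 of 34 tendon matrix genes were at least 2-fold higher in cells with Scx and 1 lower, against 3.32% and 6.41% of all genes. Fmod was at 171 against 2.65 CPM, Chad at 43.3 against 0.602 and Tnc at 115 against 9.61, while Cd34, a sublining marker, was at 280 against 708. In MMS, 12 were higher and 0 lower, against 2.37% and 3.47% of all genes, with Acan at 537 against 40.2 CPM and Fmod at 903 against 118. These genes too were picked after their values were seen. Over all control lineage cells, Fmod had a UMI in 0.902% and Chad in 0.373%, so their control levels rest on few cells. Of the 668 MMS cells, 241 lay in the Col11a1-Fmod cluster, which held 16.8% of MMS lineage cells. The markers on which it joined the lineage are among the 34 genes, so the MMS count is no separate evidence. The count was not taken without that cluster.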

How the data were processed

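The deposited matrices hold raw UMI counts, a whole number for each gene in each barcode, with no normalization. Cell Ranger 5.0.0 made them, per the file headers, whereas version 2.0.0 and mm10 stand in the submitters' processing notes. Its options were not stated. The deposited barcode lists and gene rows have no measured values; the lowest barcode total was 500 UMIs. Of 32285 gene IDs, 32158 matched GENCODE M21.

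Cells with at least 1000 UMIs, 500 genes and at most 10% mitochondrial UMIs were kept. Scrublet (scanpy 1.11.5, expected rate 0.06) marked 184 control and 106 MMS cells as doublets, which were removed. Clustering used both libraries without integration, with 2000 variable genes, 30 components, 15 neighbours and Leiden resolution 1 (igraph 0.11.9), and gave 28 clusters. The 7 genes were left out of the variable genes and of naming. A cluster joined the lineage at a marker score of 0.3, set after the clusters were seen. The score was that of its best list among fibroblast, lining, sublining, tenocyte and chondrocyte markers. A cycling cluster (17 control and 98 MMS cells) and a cluster led by Ifit1 and Isg15 (78 and 7 cells) were left out.

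UMIs were summed per group of cells and library. Ratios have exact conditional binomial intervals, levels Poisson and shares Clopper-Pearson intervals (scipy 1.17.1), all at 95%. Genes with at least 50 UMIs over both libraries entered counts. A gene with 0 UMIs in 1 library took 3 counts. The ratio, interval and thinning code was tested on simulated data.

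The 7 genes, the gene lists and the rules were chosen with earlier results of these data known. The rule for names took the 7 genes, all relatives, the 3 highest and 3 lowest ratios of each other list, the 3 genes of closest pattern per member (at least 200 UMIs; 1 is not reported here) and the leading genes of each cluster. Haemoglobin, mitochondrial, ribosomal protein, sex-linked and unnamed genes were left out of those leading genes. Alternatives changed the filters, doublets, resolution, thinning, fold, the cells taken and the depth matching.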

Additional observations from a re-analysis of the deposited data

Results flagged for a closer look

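Thbs4 went in opposite directions in clusters that both libraries hold. Its log2 ratio of MMS over control was 2.24 in cluster 1 (Fmo2, C2), 2.07 in cluster 6 (Cxcl14, Col6a5) and 2.58 in cluster 7 (Saa3, Galnt9), and -0.97 in the lining cluster 18 (Clic5, Hbegf). Thbs2 did the same, with 1.08, 1.5 and 0.48 in clusters 1, 6 and 7 and -1.37 in cluster 18. Thbs3 was at 0.34, 0.73 and 0.54 in clusters 1, 7 and 18 and at -0.44 in cluster 6. The counting intervals of these 12 ratios leave out 0, but the Thbs4 ratio in cluster 1 comes from 6 UMIs in 3 control cells and 13 in 2 MMS cells. With 1 library per group the difference between clusters was not tested.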

How the results depend on the processing

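No paired analysis was possible because each group is 1 library, and for the same reason no library could be left out. Over 17 settings the log2 ratio ran from 1.30 to 3.69 for Scx, 2.53 to 3.60 for Mkx, 1.10 to 3.46 for Thbs4, 0.19 to 1.04 for Thbs2, 0.62 to 1.06 for Htra1, 0.02 to 0.23 for Thbs3 and -1.55 to 0.92 for Tnmd. Tnmd reversed among cells of the same depth (0.056) and with clusters of both libraries weighted equally (0.92, an alternative added after seeing the data). The share of all genes past 2-fold was not taken without the Col11a1-Fmod cluster. Without that cluster, 1 gene was at least 2-fold lower, 5 tendon matrix genes were lower and the share of cells with Thbs2 reversed (-1.72 points). The share with 2 or more of Tnmd, Scx and Mkx then differed by 0.18 points in place of 2.83. That last difference was 1.09 at 2000 UMIs, 4.38 at 10000 and 8.90 unthinned, and Thbs2 was at -1.19 points at 10000. Tendon matrix genes past a 4-fold difference were 6 higher and 0 lower, 6 were lower past 1.5-fold and 1 was lower among cells of the same depth. With a gate per cell, the median of thrombospondin partners was 0.023 and that of Htra1 substrates 0.44. The latter, near 0 to begin with, was 0.028 at resolution 0.5, 0.12 at resolution 2, 0.32 at the same depth and 0.020 without cluster 7 (added after seeing the data). With Scx in place of Tnmd (also added), 10 tendon matrix genes were higher in control cells. The cause of these changes was not tested. Of the values for single genes, gene lists, pairs and the share of all genes called, 108 moved by more than their limits, 10 reversed and 223 did neither. Of those for the main comparisons, 11 moved and 61 did not. Depth limits Mkx most, with 17 control UMIs.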

Other observations

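Outside the lineage, Scx was highest in the MMS cells of the cycling cluster, among classes with at least 50 cells of a library. Scx was at 84.3 CPM (75.1 to 94.4) there, with a UMI in 40 of 98 cells, and Thbs4 was at 862 CPM. The 17 control cells of that cluster are too few to compare. Scx was also in adipocyte-like cells of the MMS library, at 36.2 CPM (27 to 47.6) with a UMI in 26 of 63 cells. Thbs4 had 0 UMIs in those adipocyte-like cells, which allows up to 2.13 CPM. In control the same class had 31 cells and 8 Scx UMIs.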
